A study of Mus musculus with 10 samples.

Results

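The dendritic cell genes examined here were 8 genes taken by symbol from the platform table of the arrays, namely Itgax, Flt3, Zbtb46, Xcr1, Clec9a, Batf3, Siglech and Irf8. Of these, 7 had a probe set, 11 probe sets in all out of 45037, and none of the 11 was shared with another gene. All 11 exceeded their array's median in 2 or more arrays, the limit set against dim probe sets, and were among the 23805 that were tested. Clec9a, a receptor for dead cells on cross-presenting dendritic cells, was not analysed here because no probe set carried its symbol or gene ID.

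Spleen RNA came from 10 female BALB/c mice, all of them injected intraperitoneally with human cartilage proteoglycan (PG) in the adjuvant dimethyldioctadecyl-ammonium bromide (DDA), and each array measured 1 mouse. PG-induced arthritis is a model of rheumatoid arthritis in which the immune response to human PG turns against the animal's own cartilage. The 2 old arthritic mice were both labelled 9 months of age, and the 2 old non-arthritic mice 7 (replicate 1) and 5 months (replicate 2). The 2 young arthritic mice were labelled 5 (replicate 1) and 4 months (replicate 2), and the 4 young non-arthritic mice 3, 3, 2 and 1 month (replicates 1 to 4). Every mouse received PG with DDA, so no unimmunized spleen entered these comparisons, and the labels do not tell ages at first injection from ages at sacrifice. Within both age groups each arthritic mouse was older than each non-arthritic mouse, with mean ages of 6.75 months in the 4 arthritic mice and 3.5 months in the 6 non-arthritic mice, so arthritis was also compared at equal age, with age in months in the same model.

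Dendritic cells take up antigen, carry it to the T cell areas of lymphoid organs and prime naive T cells. The spleen holds conventional dendritic cells of a cross-presenting type (cDC1), which depend on Batf3 and Irf8 and carry Xcr1 and Clec9a, conventional cells of another type (cDC2) that mostly serve CD4+ T cells, and plasmacytoid dendritic cells, which release type I interferon and carry Siglec-H in mice. All of them develop under Flt3 signalling, while Itgax and Irf8 are also read in other leukocytes, Irf8 in B cells and monocytes among them.

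Values are log2 signals, on which a difference of 1 is a doubling. Medians of the arrays lay between 6.88 and 6.96, and correlations between arrays ran from 0.981 to 0.997. Old arthritic replicate 2 stood apart, with a score of 52.6 on the first principal component of the tested probe sets (40% of the variance). The next highest score was 19.6, and the lowest was -23.6, in old non-arthritic replicate 2. The B and T cell genes Cd79a and Cd3e and the spleen genes Spic and Madcam1 all passed the limit on dim probe sets. Whole spleen was measured, so fewer cells of a type and less RNA per cell cannot be told apart in any value below. The number of arrays, 10 in all, limits the precision, and each p-value reflects only how much these mice differed.

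Itgax encodes CD11c, the integrin chain most used to recognize dendritic cells. Its log2 signal was 10.55 and 10.61 in old arthritic, 10.55 and 10.70 in old non-arthritic, 11.10 and 10.45 in young arthritic, and 10.50, 10.65, 10.76 and 10.78 in young non-arthritic mice. The highest and the lowest value of all 10 mice came from the same group, the young arthritic mice. At equal age the arthritic minus non-arthritic difference was 0.11 (SE 0.15, 95% interval -0.21 to 0.44, limma adjusted p = 0.674). It was -0.02 after a further quantile normalization, so no direction can be given for Itgax.

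Flt3 is the receptor through which Flt3 ligand drives dendritic cell development. It had the narrowest range of the members' probe sets, with 9.03 and 9.06 in old arthritic, 9.09 and 9.03 in old non-arthritic, 9.06 and 9.04 in young arthritic, and 8.89, 9.09, 9.08 and 9.10 in young non-arthritic mice. All groups overlapped. The 95% interval of the difference at equal age, -0.17 to 0.16, leaves room for a fold change between 0.89 and 1.12.

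Zbtb46 encodes a transcription factor that marks conventional dendritic cells and their committed precursors, and it was read by 4 probe sets that did not move together. Pearson correlations between them over the 10 mice ran from -0.44 to 0.49. With the mean log2 signal of a list of cDC2 genes, r was -0.82 for 1440489_at, -0.39 for 1429168_at, 0.63 for 1454884_at and -0.42 for 1453856_at. None of these relations passed the correction over 154 relations. Probe set 1454884_at had 8.05 and 8.22 in old arthritic, 8.24 and 8.23 in old non-arthritic, 8.65 and 8.38 in young arthritic, and 8.22, 8.34, 8.28 and 8.13 in young non-arthritic mice. Both young arthritic values were thus above all young non-arthritic values, and both old arthritic values below both old non-arthritic values (8.22 against 8.23 at the closest). The difference was 0.27 in the young group (SE 0.10, adjusted p = 0.224) and -0.10 in the old group (SE 0.12, adjusted p = 0.676), and the difference between these differences was -0.37 (95% interval -0.72 to -0.02, unadjusted p = 0.0424, adjusted p = 1.0). Probe set 1429168_at had 8.58 and 8.45 in old arthritic, 8.28 and 8.54 in old non-arthritic, 8.41 and 8.47 in young arthritic, and 8.32, 8.24, 8.30 and 8.34 in young non-arthritic mice. For this probe set too the young arthritic mice lay above the young non-arthritic mice, by 0.14 (SE 0.09, adjusted p = 0.416), while the old groups overlapped. The other probe sets, 1440489_at (8.28 to 8.62 over all mice) and 1453856_at (6.99 to 7.25), showed no separation in the young group, and the last lay so near the array medians that a level above background was not shown.

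Xcr1 encodes the receptor for the chemokine XCL1 and is carried by cDC1. Its signal was 7.24 and 7.61 in old arthritic, 7.85 and 7.80 in old non-arthritic, 7.09 and 7.31 in young arthritic, and 7.44, 7.61, 7.05 and 7.27 in young non-arthritic mice. Both old non-arthritic mice were above every other mouse, and the arthritic and the non-arthritic mice overlapped. At equal age Xcr1 was lower in arthritic mice by a log2 difference of -0.47 (SE 0.15, 95% interval -0.81 to -0.14, a fold change of 0.721), with the smallest p of the 11 probe sets (unadjusted p = 0.0106, limma adjusted p = 0.109). In the same model the signal changed by 0.09 per month of age (95% interval 0.02 to 0.15, adjusted p = 0.466). The old non-arthritic mice differed from the young non-arthritic mice by 0.48 (SE 0.16, 95% interval 0.11 to 0.85, adjusted p = 0.997). None of these differences passed the threshold of 0.05, and with a range of 7.05 to 7.85 the probe set came close to the array medians.

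Batf3 encodes the transcription factor on which cDC1 depend. It had 8.59 and 8.74 in old arthritic, 8.88 and 8.91 in old non-arthritic, 8.65 and 8.74 in young arthritic, and 8.74, 8.90, 8.69 and 8.90 in young non-arthritic mice. No arthritic mouse exceeded 8.74, whereas 4 of the 6 non-arthritic mice lay between 8.88 and 8.91. The difference was -0.17 at equal age (SE 0.09, 95% interval -0.36 to 0.02, adjusted p = 0.272) and -0.21 among mice of 4 months or more (SE 0.09, unadjusted p = 0.0429, adjusted p = 0.215).

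Xcr1 and Batf3 had the highest correlation among the 48 pairs of probe sets from different member genes, with r = 0.69 (permutation p = 0.0308, adjusted p = 0.819) and rho = 0.71 (permutation p = 0.0236, adjusted p = 0.868) over 10 mice. It was 0.52 without the 2 old non-arthritic mice, which were the farthest from the median, and 0.68 within the 6 non-arthritic mice. The relation did not pass the correction. With the mean log2 signal of the other cDC1 genes, Xcr1 correlated at r = 0.25 and rho = 0.28 and Batf3 at r = 0.08 and rho = 0.15. The 250 bases before the annotated start of both genes are shown because these were the members that moved most alike, with matches to a searched motif in capitals (RefSeq, GRCm38.p6, Batf3 at chr1:191098164-191098413 on the plus strand and Xcr1 at chr9:123862030-123862279 on the minus strand).
Batf3: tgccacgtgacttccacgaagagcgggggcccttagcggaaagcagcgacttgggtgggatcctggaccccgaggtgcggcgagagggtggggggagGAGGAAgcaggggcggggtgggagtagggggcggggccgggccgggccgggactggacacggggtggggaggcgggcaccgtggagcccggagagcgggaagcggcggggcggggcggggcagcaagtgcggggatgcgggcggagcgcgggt
Xcr1: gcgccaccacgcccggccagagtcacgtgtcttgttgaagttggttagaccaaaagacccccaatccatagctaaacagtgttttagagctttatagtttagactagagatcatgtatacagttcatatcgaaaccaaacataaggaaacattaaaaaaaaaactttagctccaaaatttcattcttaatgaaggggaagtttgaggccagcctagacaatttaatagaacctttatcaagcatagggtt
4 motifs were searched on both strands of the 9 annotated starts of the 8 genes. GAGGAA, the core bound by PU.1, occurred before Batf3 alone, and 23.3% of 32851 starts of all genes hold it. TGANTCA, the AP-1 motif, occurred before Itgax and Zbtb46 (6.75% of all starts). An interferon response element and an Ets and IRF composite element occurred before no member (2.98% and 2.3% of all starts). These matches describe letters in a window and no site of binding.

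Siglech encodes Siglec-H, an endocytic receptor of plasmacytoid dendritic cells that some mouse macrophages also carry. It had the widest range of the members, with 8.54 and 8.21 in old arthritic, 8.93 and 8.75 in old non-arthritic, 8.88 and 8.83 in young arthritic, and 9.14, 9.34, 8.73 and 8.51 in young non-arthritic mice. The 2 mice labelled 3 months had the highest values, and the 1-month-old mouse (8.51) lay between the old arthritic mice. In the old group the difference was -0.47 (SE 0.25, 95% interval -1.02 to 0.09, a fold change of 0.724, adjusted p = 0.335). It was -0.30 without old arthritic replicate 2 (SE 0.30, adjusted p = 0.8015).

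Irf8 encodes a transcription factor needed for cDC1 and used by plasmacytoid dendritic cells, B cells and monocytes. Probe set 1416714_at had 12.26 and 12.10 in old arthritic, 12.38 and 12.45 in old non-arthritic, 12.43 and 12.26 in young arthritic, and 12.27, 12.41, 12.28 and 12.29 in young non-arthritic mice. Probe set 1448452_at had 11.71 and 11.61 in old arthritic, 11.83 and 11.93 in old non-arthritic, 11.94 and 11.63 in young arthritic, and 11.74, 11.87, 11.73 and 11.70 in young non-arthritic mice. The 2 probe sets of Irf8 followed each other (r = 0.93 and rho = 0.90 over 10 mice, as a description), and both put the old arthritic mice below the old non-arthritic mice. The differences in the old group were -0.23 (SE 0.10, 95% interval -0.46 to -0.00, unadjusted p = 0.0478, adjusted p = 0.263) and -0.22 (SE 0.12, 95% interval -0.49 to 0.04, adjusted p = 0.337). The difference in the first became -0.15 without old arthritic replicate 2 (adjusted p = 0.7398).

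**Figure D1:**
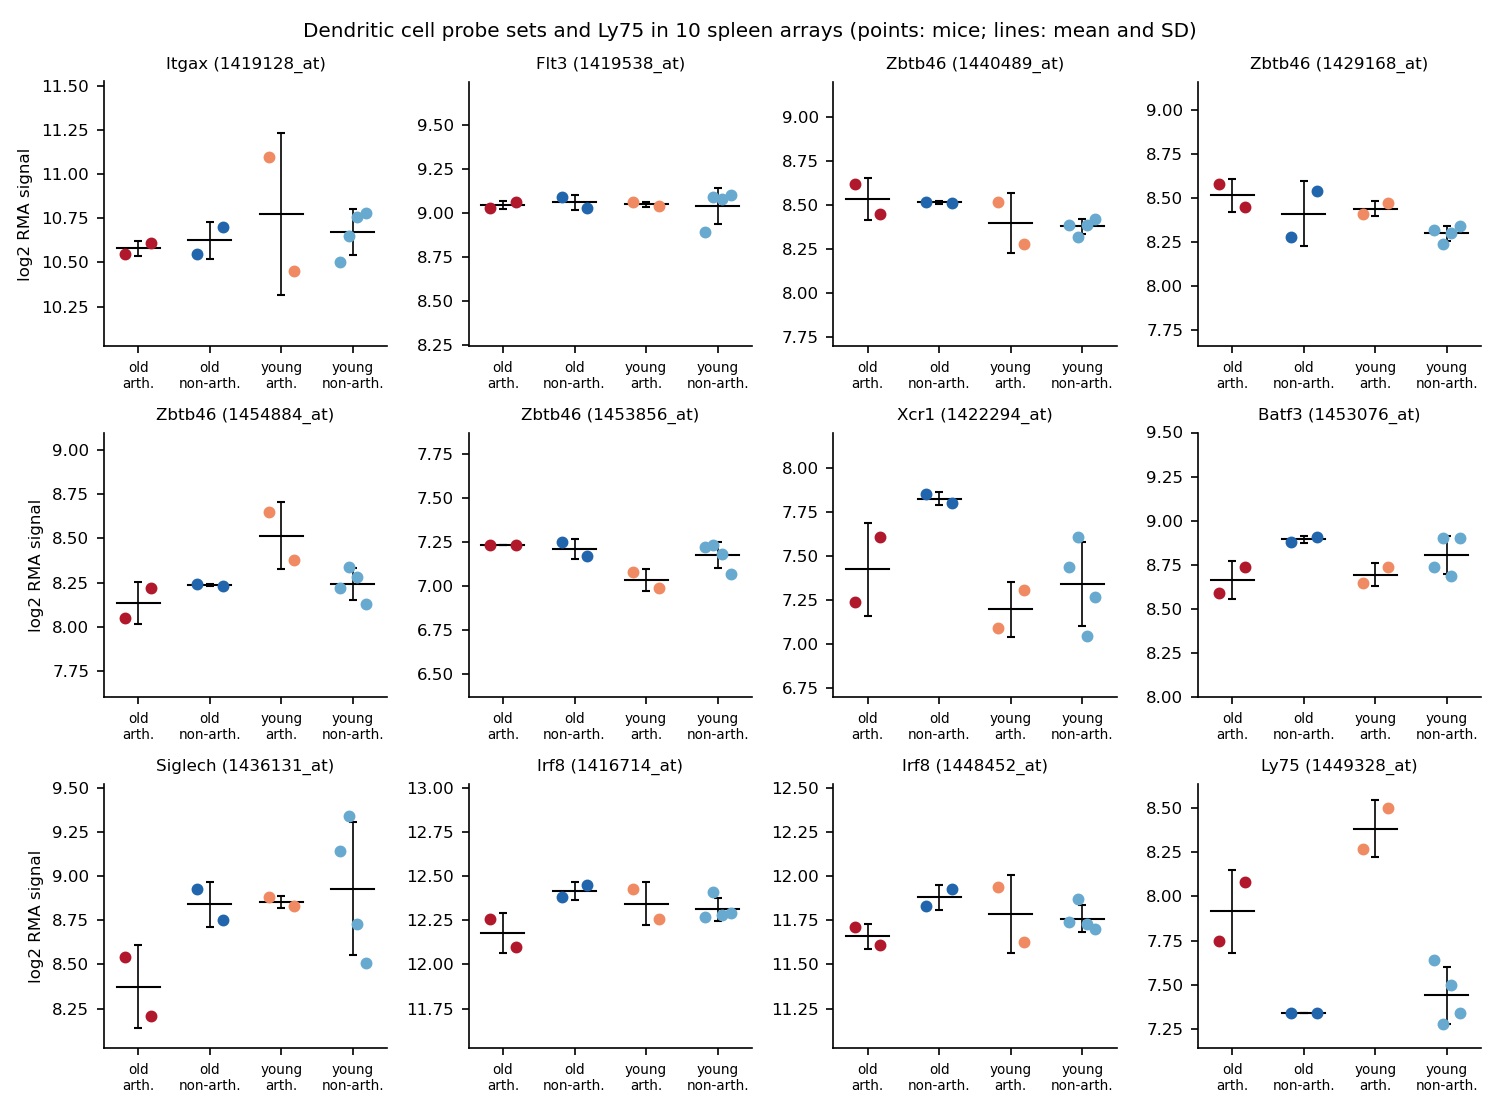
Log2 RMA signal (y axis) of the 11 probe sets of the dendritic cell genes and of Ly75 in the 4 groups of mice (x axis; old on the left, arthritic before non-arthritic). Points are mice and lines are the mean and SD. The lowest Siglech value, 8.21, is an old arthritic mouse, and Xcr1 is highest in old non-arthritic mice (7.80 and 7.85). Of the probe sets shown only Ly75 separates all arthritic from all non-arthritic mice, with higher values in arthritic mice, as do 10.4% of all tested probe sets.

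In the plot of signals by group, the arthritic and non-arthritic mice overlapped for all 11 probe sets once both ages were pooled, 0 of 11 being separated, against 12.1% of all tested probe sets. In the old group 6 of 11 lay lower in both arthritic mice than in both non-arthritic mice (Zbtb46 1454884_at, Xcr1, Batf3, Siglech and both of Irf8) and 0 lay higher, where 16.2% of all tested probe sets were separated downwards and 35.3% upwards. These 6 stand for 5 genes, so they are not 6 independent readings. The count was 6 after a further quantile normalization, where 21.6% of all probe sets were lower, and 5 with arrays centred on their medians, where 13.9% were lower. With each old arthritic mouse taken alone, 8 of 11 were below both old non-arthritic mice in replicate 1 (30.5% of all probe sets), where Itgax and Flt3 equalled the lower old non-arthritic value at 2 decimals, and 7 of 11 in replicate 2 (31.3%). Above both old non-arthritic mice were 2 of 11 in replicate 1 (44.3% of all) and 0 in replicate 2 (53.6%). In the young group 2 of 11 were higher in arthritic mice (Zbtb46 1429168_at and 1454884_at) and 0 lower, while 25.6% of all probe sets were higher and 6.31% lower. After the further quantile normalization 0 of 11 were higher (12.1% of all probe sets) and 1 was lower (11.8%) in that group.

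In the linear models 0 of 11 probe sets passed the threshold in any of the 7 comparisons. The share of all 23805 probe sets called was 2.26% for arthritis at equal age (538 probe sets), 0.576% for arthritis at 4 months or more (137), 0.0714% for arthritis in the old group (17), 0.311% for arthritis in the young group (74), 0.0042% for age in months (1) and 0% both for the difference of the arthritis effects and for age among non-arthritic mice (old against young). Such shares would give less than 1 call among 11 probe sets, so the 0 calls of the members are near the background. At an unadjusted p under 0.05, 2 of 11 were lower at equal age (Xcr1 and Zbtb46 1453856_at) against 3.65% of all probe sets lower and 19.2% higher, and 2 were lower at 4 months or more (Xcr1 and Batf3) against 3.83% lower and 17.9% higher. In the old group 1 was lower (Irf8 1416714_at) against 5.0% of all probe sets, and in the young group 1 was higher (Zbtb46 1454884_at) against 15.3%.

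The median difference of the 11 probe sets was -0.07 at equal age, where the median of all tested probe sets was 0.09, and 8 of the 11 were negative. It was -0.08 at 4 months or more (all probe sets 0.08), -0.10 in the old group (all 0.05) and 0.02 in the young group (all 0.09), where a further quantile normalization gave -0.12 (all 0.00) and 9 of 11 negative in place of 4. The arthritis effect in the old group minus that in the young group was negative for 10 of 11 probe sets, with a median of -0.15 (all -0.03), and only Zbtb46 1453856_at was positive, at 0.17. The count was 7 of 11 after a further quantile normalization (median -0.10, all 0.01) and 9 of 11 with arrays centred on their medians (median -0.13, all -0.02). None of these differences between age groups passed the threshold, and 1 of 11 (Zbtb46 1454884_at) had an unadjusted p under 0.05 and was negative, against 2.35% of all probe sets in that direction. The plot of the differences shows how wide their intervals were. Over all 11 probe sets the 95% intervals at equal age lay within -0.81 to 0.46, so log2 differences of 1 lay outside every one of them. This did not hold in the old group, where the Siglech interval reached -1.02. For the difference of the arthritis effects it reached -1.13.

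**Figure D2:**
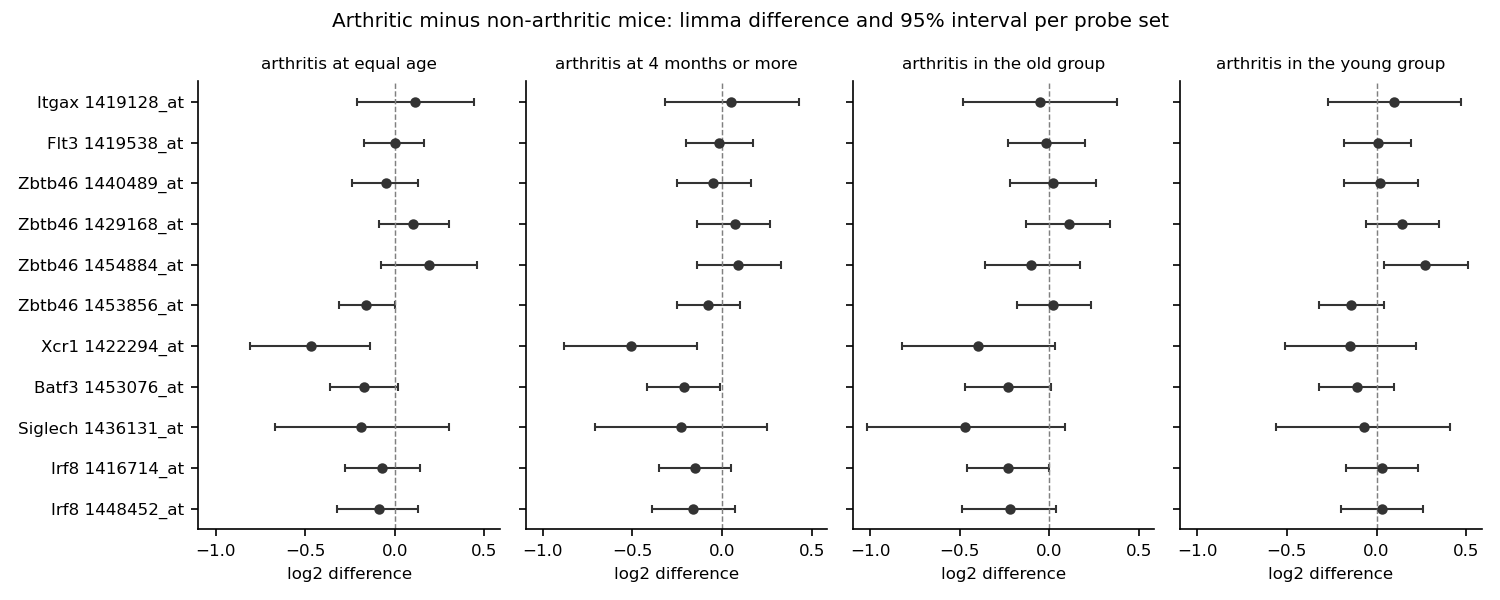
Arthritic minus non-arthritic log2 difference (x axis) of each probe set (y axis) with its 95% interval from limma, in 4 comparisons from left to right. Xcr1 lies at -0.47 at equal age and at -0.51 at 4 months or more, Siglech at -0.47 in the old group, and most intervals cross the dashed line at 0.

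With age, the members gave a median slope of 0.00 per month (all probe sets -0.01), with 2 of 11 positive at an unadjusted p under 0.05 (Xcr1 and Zbtb46 1453856_at, against 3.13% of all probe sets positive). Old against young non-arthritic mice, the comparison of age without arthritis, gave a median of 0.09 (all -0.02). In it 2 of 11 were higher in every old mouse (Xcr1 and Zbtb46 1440489_at, 8.52 and 8.51 in old against 8.32 to 8.42 in young mice), and 0 were lower, with 4.21% and 7.77% of all probe sets separated in those directions. After the further quantile normalization 4 of 11 were higher (5.2% of all probe sets), and with arrays centred on their medians 2 of 11 (2.57%). In 1 of 11, Xcr1, the unadjusted p was under 0.05 with a higher signal in old mice (1.09% of all probe sets). The old mice here were 5 and 7 months old. The plot by age shows that Siglech was not a straight line of age, since its highest values came at 3 months (9.14 and 9.34) and low values both at 9 months (8.21 and 8.54) and at 1 month (8.51). The 9-month-old mice were both arthritic, so age and arthritis cannot be told apart at that age.

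**Figure D3:**
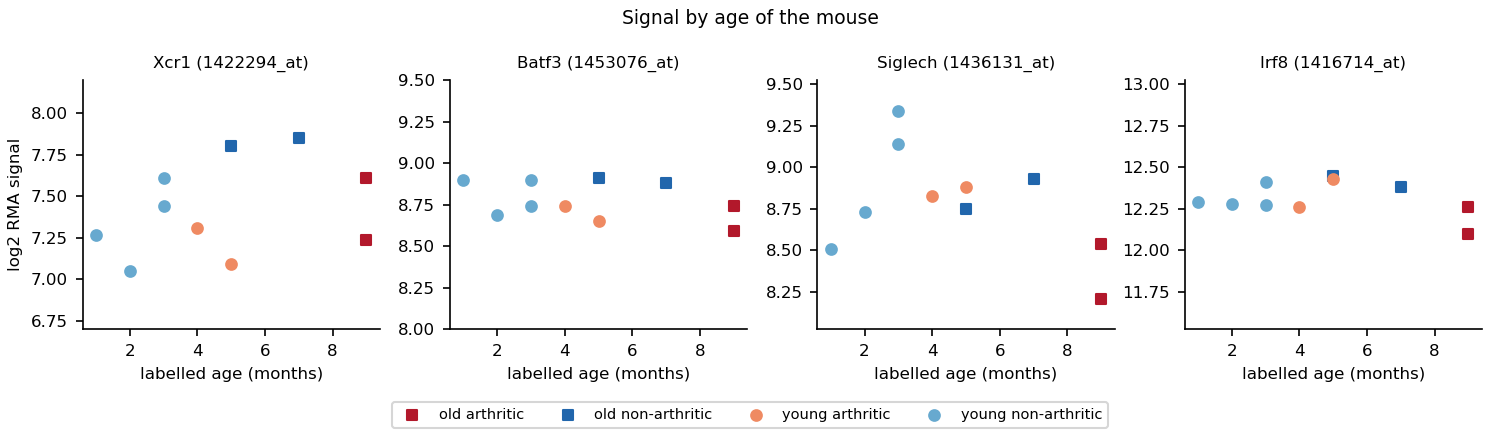
Log2 RMA signal (y axis) of Xcr1, Batf3, Siglech and Irf8 against labelled age in months (x axis), 1 point per mouse, squares for the old and circles for the young groups, red and orange for arthritic and blue for non-arthritic mice. Xcr1 is 7.80 and 7.85 in the 5- and 7-month-old non-arthritic mice and 7.24 and 7.61 in the 9-month-old arthritic mice, and Siglech peaks at 9.34 in a 3-month-old mouse.

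Siglech followed the markers of natural killer (NK) cells, lymphocytes that kill infected or stressed cells. Of 8 NK cell markers 7 were tested (Klrb1c was not used here), and over 10 mice Siglech correlated with their mean log2 signal at r = 0.93 (permutation p = 0.00023, adjusted p = 0.0354) and rho = 0.88 (permutation p = 0.00152, adjusted p = 0.117). The p-values were adjusted over 154 relations of the 11 probe sets with 14 gene lists, of which this was the 1 that passed on r, and none passed on rho. The correlation was 0.83 without the 2 mice farthest from the median (old arthritic replicate 2 and young non-arthritic replicate 2) and 0.89 within the 6 non-arthritic mice. The log2 of the summed signal of the 7 markers was 12.28 to 12.48 in old arthritic, 12.96 to 13.00 in old non-arthritic, 12.86 to 12.97 in young arthritic and 12.68 to 13.41 in young non-arthritic mice, so it was lowest in the old arthritic mice, as the plot of Siglech against these markers shows, and Siglech was also lowest in 1 of them. In the old group the median difference of the 7 was -0.56 (all genes 0.07). Of the 7 markers, 4 were lower at an unadjusted p under 0.05, against 5.0% of all probe sets, and 0 passed the threshold. The largest difference was that of Klrd1 (-0.99, SE 0.24, adjusted p = 0.113). Its values were far apart in the old arthritic mice, at 7.68 and 8.59, against 9.01 and 9.23 in old non-arthritic mice. All 7 markers lay above the limit on dim probe sets, and the part of NK cells in the Siglech signal was not tested. With the 16 tested genes of the other plasmacytoid dendritic cell list, Siglech correlated at r = 0.60 and rho = 0.73 (adjusted p = 0.576 and 0.614), with the mature and migratory dendritic cell genes at r = 0.74 and rho = 0.78 (adjusted p = 0.375 and 0.529) and with the T cell markers at r = 0.72 and rho = 0.68 (adjusted p = 0.446 and 0.703), none passing the correction.

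**Figure D4:**
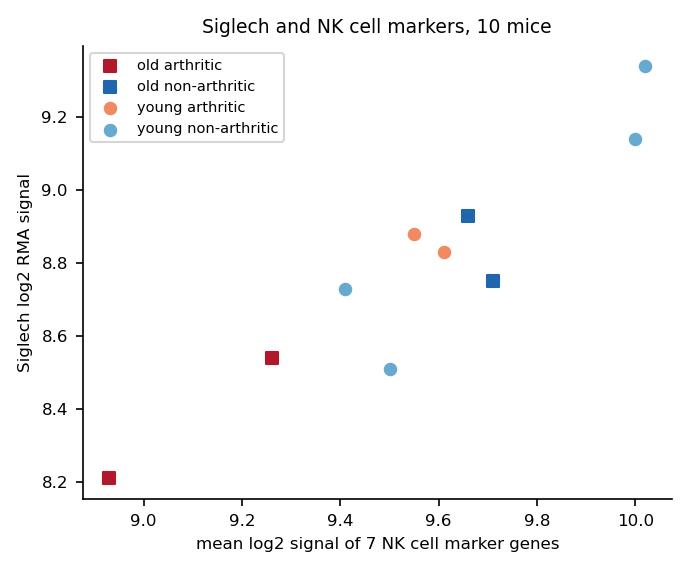
Siglech log2 RMA signal (y axis) against the mean log2 signal of 7 NK cell markers (x axis), 1 point per mouse. The old arthritic mice lie at the lower left with Siglech at 8.21 and 8.54, and the highest Siglech value, 9.34, lies at the upper right.

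The genes most like each member over the 10 mice, by Pearson correlation among 11870 named genes and as a description, were Marco (0.95), Klrc1 (0.94) and Prf1 (0.94) for Siglech. Marco is a scavenger receptor of marginal zone macrophages, and Klrc1 and Prf1 (perforin) belong to cytotoxic lymphocytes. Irf8 was most like Npnt (0.94), Pacsin1 (0.91) and Ptpn14 (0.89), of which Pacsin1 is in the list of other plasmacytoid dendritic cell genes. Without old arthritic replicate 2 its correlation with Pacsin1 was 0.82. With the mean log2 signal of that whole list, Irf8 1416714_at correlated at r = 0.04 and rho = 0.08, and 1448452_at at r = 0.15 and rho = 0.31. The genes most like Batf3 were Gtf2ird2 (0.95), Snhg11 (0.91) and Cyb561a3 (0.91), those for Xcr1 Izumo1r (0.91), 4930526I15Rik (0.91) and Dglucy (0.88), and those for Flt3 Lama2 (0.95), Npr2 (0.95) and Sirt6 (0.94). Itgax was most like Col4a2 (0.92), Trio (0.90) and Slit3 (0.90), and the brightest Zbtb46 probe set most like Nlgn2 (0.88), AA386476 (0.85) and 0610040F04Rik (0.84).

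Among the genes that act with the members, 1 passed the threshold, Ly75 (probe set 1449328_at), which encodes the endocytic receptor DEC-205 of cDC1 and is also carried by B cells at a lower level. Tested were 13 other cDC1, 12 cDC2, 16 other plasmacytoid, 12 mature and migratory, 10 growth factor and receptor and 9 MHC class II genes. Of all tested probe sets 2.26% were called at equal age, so 1 call among these genes was near the background. The Ly75 signal was 7.75 and 8.08 in old arthritic, 7.34 and 7.34 in old non-arthritic, 8.27 and 8.50 in young arthritic, and 7.64, 7.28, 7.50 and 7.34 in young non-arthritic mice. Every arthritic mouse was above every non-arthritic mouse, with 8.15 ± 0.32 in arthritic (SD, n = 4) and 7.41 ± 0.14 in non-arthritic mice (SD, n = 6). Of all tested probe sets 10.4% were separated in this direction. The non-arthritic values, 7.28 to 7.64, lay close to the array medians of 6.88 to 6.96, so a level above background was not shown in those mice. At equal age Ly75 was higher in arthritic mice by 0.93 (SE 0.14, 95% interval 0.62 to 1.24, a ratio of RMA signals of 1.91, limma adjusted p = 0.0178). It also passed in mice of 4 months or more (0.81, adjusted p = 0.0423) and in the young group (0.94, adjusted p = 0.0357), and not in the old group (0.57, adjusted p = 0.126), though the difference between the age groups did not pass either (-0.37, SE 0.20, adjusted p = 1.0). The call at equal age was lost without old non-arthritic replicate 1 (adjusted p = 0.1002) or 2 (0.06801), without young arthritic replicate 1 (0.0795) or 2 (0.1769), and it held in 12 of 17 alternatives, with adjusted p from 0.00164 to 0.177. The call at 4 months or more held in 3 of 18 alternatives and that in the young group in 5 of 18.

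Of 13 other cDC1 genes tested, Ly75 alone was called at equal age, 0 were called lower, 9 were positive and the median difference was 0.03 (all genes 0.11). In the young group 11 of 13 were positive, with a median of 0.10 (all genes 0.11). Wdfy4, needed for cross-presentation by cDC1, averaged 11.50 ± 0.11 in arthritic (SD, n = 4) and 11.66 ± 0.12 in non-arthritic mice (SD, n = 6), a difference of -0.21 at equal age (SE 0.10, adjusted p = 0.226). Cadm1, an adhesion molecule of the same cells, had the smallest p of the list for age, at -0.05 per month (SE 0.02, adjusted p = 0.466).

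At equal age the median of all genes was 0.11, and 19.2% of all probe sets were higher at an unadjusted p under 0.05. Of 12 cDC2 genes 0 were called at equal age, with a median of 0.10 and 1 higher at an unadjusted p under 0.05, Clec4a2 (0.50, SE 0.17, adjusted p = 0.116). Of 16 other plasmacytoid dendritic cell genes 0 were called, with a median of 0.05 and 1 higher at an unadjusted p under 0.05, and the smallest p belonged to Pltp, a phospholipid transfer protein (0.37, SE 0.11, adjusted p = 0.0891). Genes of mature and migratory dendritic cells gave 0 calls of 12 and 2 higher at an unadjusted p under 0.05, with Fscn1, the actin bundler of mature cells, at 0.31 (SE 0.14, adjusted p = 0.214). For age, Ccr7, the receptor that guides them to lymphoid T cell areas, changed by -0.06 per month (SE 0.02, adjusted p = 0.484). Its mean was lowest in the old arthritic mice, at 9.87. The means were 10.29 in old non-arthritic, 10.37 in young arthritic and 10.36 in young non-arthritic mice.

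Growth factors and receptors of dendritic cells gave 0 calls of 10 at equal age. Their median was 0.01 (all genes 0.11) and 5 of 10 were positive. At an unadjusted p under 0.05, 4 were higher and 0 lower, where 19.2% of all probe sets were higher. Il3ra, the interleukin-3 receptor chain, was at 0.46 (SE 0.12, adjusted p = 0.065) and Csf2ra, the GM-CSF receptor chain, at 0.32 (SE 0.10, adjusted p = 0.103). Antigen presentation by MHC class II gave 0 calls of 9, with 0 at an unadjusted p under 0.05, and Cd74, the invariant chain, had the smallest p (0.11, SE 0.06, adjusted p = 0.309). The log2 of the summed signal of that list ran only from 16.54 to 16.73 over all mice.

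Lists of other spleen cells stood beside these values at equal age. There the median of all genes was 0.11. At an unadjusted p under 0.05, 19.2% of all probe sets were higher and 3.65% lower. Neutrophil markers had a median of 1.11, with 8 of 9 higher at an unadjusted p under 0.05 and 0 called, and the log2 of their summed signal was 16.80 to 17.08 in old arthritic, 15.99 to 16.15 in old non-arthritic, 16.83 to 17.35 in young arthritic and 16.35 to 17.06 in young non-arthritic mice. Plasma cell markers had a median of 0.32, with 2 of 8 higher at an unadjusted p under 0.05 and 0 called. NK cell markers had a median of -0.30, with 1 of 7 positive, 0 called and 0 at an unadjusted p under 0.05. In the young group the NK median was -0.18 (all genes 0.11), again with 1 of 7 positive and 0 called. B cell markers (median -0.01, 0 of 8 called) and T cell markers (median -0.00, 0 of 6 called) did not pass, with 0 at an unadjusted p under 0.05 in both, nor did macrophage and monocyte markers (median 0.10, 0 of 11 called, 3 higher at an unadjusted p under 0.05), erythroid markers (median 0.21, 0 of 7 called) or spleen markers (median 0.08, 0 of 4 called), again with 0 at an unadjusted p under 0.05. Irf8 1416714_at correlated with the B cell markers at r = 0.63 and Batf3 with the neutrophil markers at r = -0.62, and neither relation passed the correction over 154 relations (both adjusted p = 0.576). In the old group, where 6 of 11 members' probe sets were lower, T cell markers had a median of -0.34 (all genes 0.07), 0 of 6 positive, 1 lower at an unadjusted p under 0.05 and 0 called, and the log2 of their summed signal was 12.80 to 12.82 in old arthritic and 12.96 to 13.08 in old non-arthritic mice. Neutrophil markers there had a median of 1.20, with 8 of 9 higher at an unadjusted p under 0.05 (13.6% of all probe sets were higher and 5.0% lower) and 0 called. The median was 0.49 for plasma cell markers, -0.02 for B cell markers and -0.08 for macrophage and monocyte markers. The part of these cell types in the members' signals was not tested.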

How the data were processed

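Spleen RNA of 10 mice was hybridized to 1 Affymetrix array each. The authors deposited log2 values for each probe set, which the submitters' processing notes trace to RMA (robust multi-array average). The RMA version is not given in the sources, and the paper's text describes no array test. RMA corrects background, makes the arrays' distributions alike and summarizes probes. Some shift remained in these values, since the median difference of all tested probe sets at equal age was 0.09. Of 45101 rows, 64 controls were left out. A probe set was tested when above its array's median in at least 2 arrays (23805 of 45037, 11870 named genes). The files used hold no detection call.

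Groups came from the sample labels. limma 3.58.1 in R 4.3.3 (lmFit, eBayes) gave 2 models on all 10 arrays, with age in months and arthritis (7 residual degrees of freedom) or a mean per group (6), and Benjamini-Hochberg adjustment over all tested probe sets at 0.05. Old arthritic or young arthritic mice were set against non-arthritic mice, and "4 months or more" sets both arthritic groups against the old non-arthritic mice. The models were tested on simulated data. Correlation p-values came from 100000 two-sided permutations. Alternatives were the filter, scaling, the estimate of spread, weights per array, a block for the replicate number, fits of only the groups compared and leaving out single mice.

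The members and gene lists were chosen with earlier results of these data known. Named genes are all members and, of each list, the 2 with the smallest p at equal age and for age, some given only in counts; others were named after their values were seen. The same numbers in 2 groups mark no shared animal in the labels. Sequences are from RefSeq. Figures were drawn with matplotlib 3.10.9.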

Additional observations from a re-analysis of the deposited data

Results flagged for a closer look

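In the groups of 4 mice, 12 probe sets (the 11 of the members and Ly75) were searched for a mouse far from the other 3, and 2 had one. Irf8 1416714_at was 12.41 in young non-arthritic replicate 2, against 12.27 to 12.29 in the other young non-arthritic mice, a gap of 0.846 of the group's range. Flt3 was 8.89 in young non-arthritic replicate 1, against 9.08 to 9.10 in the others, a gap of 0.874 of the range. Chance alone marks about 1 in 20 such groups.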

How the results depend on the processing

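The count of dendritic cell probe sets past the threshold was 0 in every alternative of all 7 comparisons with 1 exception. With array weights it was 1 at equal age, Xcr1 (-0.49, SE 0.12, adjusted p = 0.02252). These weights brought 4857 of all 23805 probe sets past the threshold at equal age, against 538 without them, so this call does not set Xcr1 apart. Leaving out each mouse gave 0 dendritic cell probe sets past the threshold in each case. Over 17 alternatives the Xcr1 difference at equal age ran from -0.65 to -0.41, with adjusted p from 0.0225 to 0.367. With the replicate number as a block the count was 0 in each comparison, Xcr1 at equal age was -0.52 (adjusted p = 0.06334) and Ly75 lost its call (adjusted p = 0.05974). Samples with the same number deviated together by r = -0.525 to 0.356. Where a group holds only a pair of mice, their deviations from the group mean mirror each other. Between such groups each number therefore gave the same r (-0.525, 0.186 and -0.223). Samples with different numbers were not compared, so these values cannot show whether the numbers pair the mice. With the block 29 probe sets in all passed at equal age, against 538 without it.

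The count over all probe sets at equal age ran from 0 to 859 when each mouse was left out (0 without old non-arthritic replicate 1, 17 without replicate 2 of that group, 17 and 2 without young arthritic replicates 1 and 2, 258 and 859 without young non-arthritic replicates 3 and 4), and from 29 to 5475 in the other alternatives. It ran from 0 to 3997 at 4 months or more, 0 to 2280 in the old group and 0 to 3186 in the young group. A further quantile normalization took the median of all probe sets at equal age to 0.00 from 0.09. It turned the small differences of Itgax at equal age to -0.02 and of Irf8 in the young group to -0.12 and -0.13 from 0.03; the cause was not tested. Itgax in the young group was -0.23 without young arthritic replicate 1 and 0.43 without replicate 2. Ly75 kept its call in 3 of 18 alternatives at 4 months or more and in 5 of 18 in the young group. Groups of 2 mice and dim signals (Xcr1, Zbtb46 1453856_at, and Ly75 in non-arthritic mice) limit what these arrays can show.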
